A study of Gallus gallus with 6 samples.

Results

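Replication licensing and G1/S genes were taken as a list of symbols: the helicase subunits MCM2, MCM3, MCM4, MCM5 and MCM6, the loader CDC6, the activation factors MCM10 and CDC45, the transcription factor E2F1, and DTL. On the Affymetrix chicken array used here, which reads a transcript through a set of short probes, 14 of 38439 probe sets carried one of these symbols alone, and they covered 8 of the 10 genes. No probe set carried the symbol MCM4 or CDC6, so both are not analysed here. Whole ovaries of 6 hens (Gallus gallus) were compared, 1 array per hen: 3 with ovarian tumours (disease state cancer; hens 4, LB14 and LB11) and 3 without signs of cancer on gross or microscopic inspection (disease state Normal; hens 36, LB3 and LB22). The 2 groups were alike in age and laying status per the design text, no hen was given a treatment or a genetic change in the labels, and the tumours were of stage 2 or 3. The sources used here give neither the stage of each hen nor breed and age. Each array is a different hen per the labels, so SDs below describe variation between animals. The SEs and intervals of log2 differences come from limma, which also draws on the variance of the other probe sets. They are therefore not the spread of the hens alone. Whole tissue was extracted, so fewer cells of a type and less RNA per cell cannot be told apart. In the values below, a tumour with a hen's number stands for the whole ovary of that hen with cancer. The share of tumour cells in each such ovary was not tested, so no value is that of tumour cells alone. Signals are linear, in arbitrary units, and were scaled by the authors to a common mean on every array. The number of arrays limits the precision.

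DNA replication starts at origins that are licensed in late mitosis and G1, when the origin recognition complex, CDC6 and CDT1 load the ring-shaped MCM2 to MCM7 helicase onto DNA. At the G1/S transition the E2F transcription factors switch on many of these genes, and CDC45 and the GINS complex turn the loaded ring into an active helicase, a step that also needs MCM10. DTL is the substrate receptor of a CUL4 ubiquitin ligase that removes CDT1 once replication has begun, which keeps an origin from being licensed again. Genes of this machinery are read as signs of dividing cells, which in an ovary include the granulosa cells of growing follicles and, where there is one, a tumour.

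All 8 genes gave lower average signals in the ovaries with tumours than in the normal ovaries. The log2 differences ran from −1.14 for DTL to −0.40 for MCM10, with a median of −0.88, where all 13009 genes on the array had a median of −0.00. A negative difference was found for 50.5% of all genes. None of the differences of the 8 genes passed the limma test, whose adjusted p-values over all 38439 probe sets ran from 0.221 to 0.83 for the 8 genes; 0 of the 14 probe sets were called, where 0.0156% of all probe sets were called lower and 0.0989% higher. At an unadjusted limma p under 0.05, 6 of the 8 genes were lower and 0 higher, beside 5.24% of all genes lower and 5.3% higher. In 5 of the 8 genes every tumour lay below every normal ovary, against 8.4% of all genes. The 8 genes were chosen with earlier results of these data known, so their contrast with all genes is not independent evidence.

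Of the helicase subunits, MCM2, whose N-terminal tail also binds histones, gave signals of 853, 714 and 924 in tumours 4, LB14 and LB11, and 1878, 1221 and 2020 in normal hens 36, LB3 and LB22. The groups did not overlap, and normal hen LB3 lay nearest to the tumours. The means were 830 ± 107 and 1706 ± 426 (SD, n = 3 each), a log2 difference of −1.00 (SE 0.23, 95% interval −1.52 to −0.48, limma adjusted p = 0.248).

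MCM3, a subunit that sits beside MCM5 in the ring, gave 656, 735 and 454 in tumours 4, LB14 and LB11, and 1399, 764 and 1284 in normal hens 36, LB3 and LB22. The groups were separate but came close, since normal hen LB3 stood only just above tumour LB14. The log2 difference was −0.86 (SE 0.28, 95% interval −1.50 to −0.23, limma adjusted p = 0.427). MCM5, which with MCM2 forms the gate through which the ring opens, gave 913, 832 and 1873 in tumours 4, LB14 and LB11, and 2505, 1352 and 2725 in normal hens 36, LB3 and LB22. Tumour LB11 exceeded normal hen LB3, so the groups overlapped. With a log2 difference of −0.89 (SE 0.36, 95% interval −1.69 to −0.08, limma adjusted p = 0.55), MCM5 had the widest spread among the tumours of the 8 genes, an SD of 0.63 on the log2 scale.

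MCM6 had 4 probe sets, and the 2 brightest ordered the hens differently. The brightest gave 733, 1099 and 618 in tumours 4, LB14 and LB11, and 1228, 814 and 1384 in normal hens 36, LB3 and LB22. Tumour LB14 lay above normal hen LB3 on it, and the log2 difference was −0.48 (SE 0.27, 95% interval −1.10 to 0.14, limma adjusted p = 0.713). The next gave 188, 267 and 642 in the tumours and 655, 553 and 288 in the normal ovaries, in the same order of hens. Here tumour LB11 was among the highest arrays and normal hen LB22, the highest on the brightest probe set, was the lowest normal. The log2 difference of this probe set was −0.54 (SE 0.45). A further probe set separated the groups by a small step, from 185 to 218 in tumours and from 222 to 249 in normal ovaries, with a log2 difference of −0.20 (SE 0.23). The last was at or below the background limit on all 6 arrays (mean signal 19.1), and its log2 difference of 0.30 (SE 0.36) was the only positive one among the 14 probe sets. MCM2 likewise had a dim second probe set, above the background limit on 1 of 6 arrays, with a log2 difference of −0.63 (SE 0.40).

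**Figure D1:**
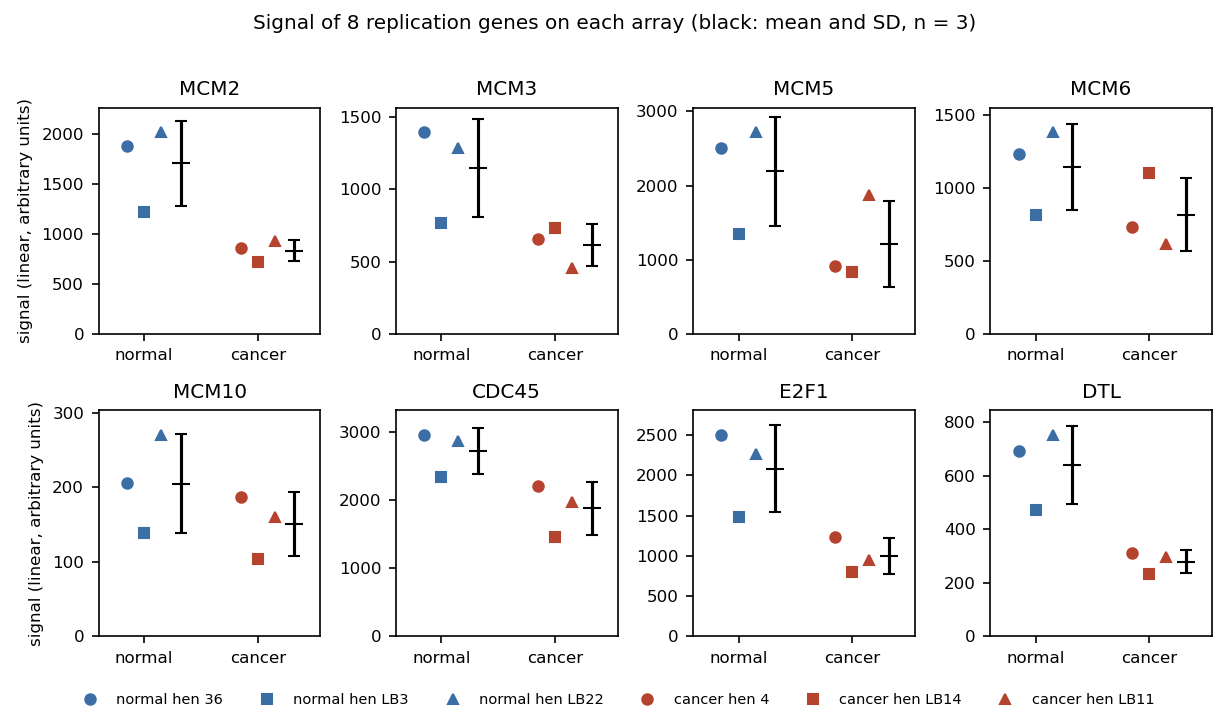
Signal (linear, arbitrary units, axes from 0) of the brightest probe set of each gene on each array, normal ovaries in blue and ovaries with tumours in red, with the mean and SD of each group in black (n = 3 hens). Normal hen LB3 (blue square) is the lowest normal ovary in all 8 panels, and tumours and normal ovaries are separate for MCM2, MCM3, CDC45, E2F1 and DTL.

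The activation factors had smaller differences than MCM2, MCM3 and MCM5, but CDC45 differed by more than the helicase subunit MCM6 (−0.48). The genes were not tested against each other. CDC45, the helicase partner that joins MCM2 to MCM7 at firing, gave 2206, 1450 and 1974 in tumours 4, LB14 and LB11, and 2957, 2329 and 2865 in normal hens 36, LB3 and LB22. Every tumour lay below every normal ovary, with tumour 4 close to normal hen LB3. The log2 difference was −0.54 (SE 0.20, 95% interval −1.00 to −0.09, limma adjusted p = 0.505), the smallest limma SE of the 14 probe sets. The spread between hens was not the smallest. CDC45 had log2 SDs of 0.31 in tumours and 0.19 in normal ovaries, against 0.11 and 0.08 on the third brightest MCM6 probe set.

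MCM10, which helps the activated helicase leave the origin, gave 187, 103 and 160 in tumours 4, LB14 and LB11, and 205, 139 and 271 in normal hens 36, LB3 and LB22. Tumours 4 and LB11 lay above normal hen LB3, so the groups overlapped. The log2 difference was −0.40 (SE 0.33, 95% interval −1.16 to 0.36, limma adjusted p = 0.83), an interval that includes 0. Its dimmer probe set, with signals from 43.4 to 80.5, differed by −0.31 (SE 0.31) and was above the background limit on 5 of 6 arrays.

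E2F1 and DTL, grouped here under G1/S control, had the largest differences among the 8 on the brightest probe sets. MCM2 was close to them, at −1.00. E2F1 gave 1235, 795 and 949 in tumours 4, LB14 and LB11, and 2508, 1481 and 2265 in normal hens 36, LB3 and LB22. The groups did not overlap, and E2F1 signals in normal hens 36 and LB22 were far above those of the other arrays. The log2 difference was −1.05 (SE 0.25, 95% interval −1.61 to −0.48, limma adjusted p = 0.275). E2F1 is the founding activator of its family and a direct regulator of MCM genes in mammals.

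DTL gave 311, 232 and 295 in tumours 4, LB14 and LB11, and 692, 474 and 754 in normal hens 36, LB3 and LB22. All ovaries with tumours lay well below all normal ovaries. The log2 difference was −1.14 (SE 0.25, 95% interval −1.69 to −0.58, limma adjusted p = 0.221), a normal level 2.20 times that of the tumours on the shifted log scale. The dimmer probe set of DTL pointed the same way, with 76.6, 57.5 and 50.1 in tumours 4, LB14 and LB11, and 127, 91.0 and 119 in normal hens 36, LB3 and LB22. It did not overlap between groups either, and differed by −0.73 (SE 0.31, limma adjusted p = 0.583).

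**Figure D2:**
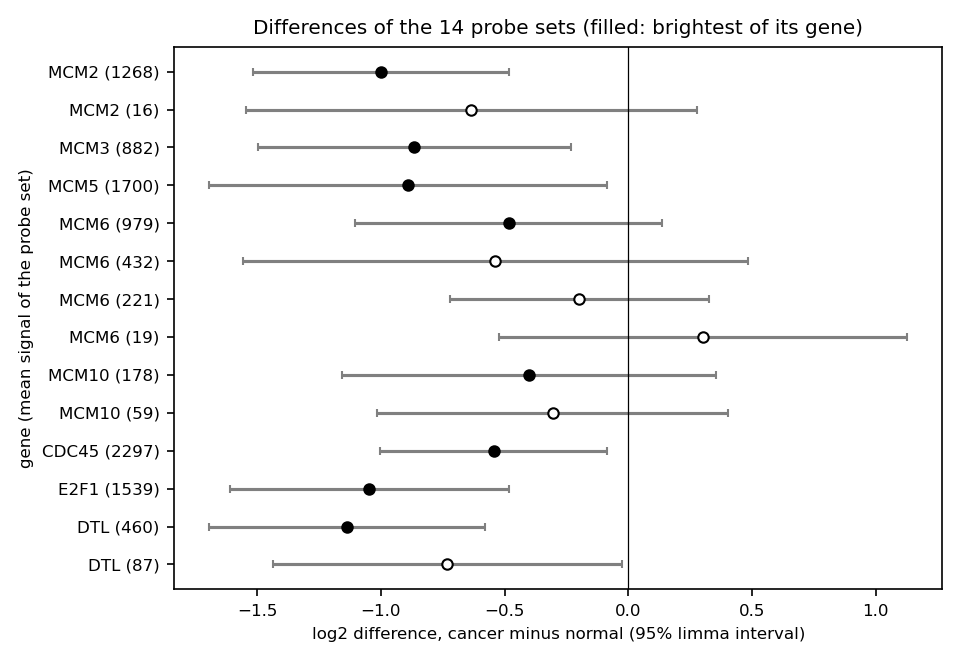
Log2 difference, cancer minus normal, of all 14 probe sets with limma's 95% interval; filled points are the brightest probe set of a gene and the mean signal stands in brackets. The points run from −1.14 for DTL to 0.30 for the MCM6 probe set at background, and among the filled points the intervals of MCM10 and MCM6 include 0.

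The 8 genes shared their lowest normal ovary but not the order of the other hens. On the brightest probe sets, normal hen LB3 was the lowest normal ovary for 8 of 8 genes, against 4454 of 13009 genes in all. It was also the lowest for 48 of 79 other genes of the pathway and 20 of 33 mitosis genes. Over all 14 probe sets of the 8 genes, LB3 was the lowest normal ovary on 10 and LB22 on 4. The highest normal ovary was LB22 for 5 genes and 36 for MCM3, CDC45 and E2F1. Averaged over the 8 genes on the log2 scale, normal hens 36 and LB22 lay 0.19 and 0.26 above the normal mean, LB3 lay at −0.45, and tumours 4, LB14 and LB11 lay at −0.69, −0.95 and −0.75. Tumour LB14 was the lowest tumour for 6 genes (MCM2, MCM5, MCM10, CDC45, E2F1 and DTL), and LB11 for MCM3 and MCM6. The median SD among normal ovaries was 0.40 (log2) for the 8 genes and 0.22 for all genes, whereas among tumours the medians were 0.33 and 0.34. Without normal hen LB3, 8 of 8 genes were free of overlap (15.1% of all genes) and their median log2 difference became −1.17, with 0 of 14 probe sets past the limma threshold. Because LB3 was the lowest normal ovary for all 8 genes, its removal had to raise each normal mean and could not add overlap. The overlap count without LB3 was an alternative chosen after values were seen.

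The titles of 4 hens carry the prefix LB, whose meaning is not given. Among these hens alone the log2 differences of the 8 genes ran from −1.15 to −0.36, with a median of −0.69 and limma adjusted p-values from 0.608 to 0.883. Between the other hens, tumour 4 and normal hen 36, they ran from −1.44 to −0.12, with no test since each group held 1 array.

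Other genes of the pathway were lower less uniformly. In 7 lists of its steps, 79 genes were on the array, of which 59 had a negative log2 difference, 20 a positive one, and 0 passed the limma threshold in either direction. At an unadjusted limma p under 0.05, 10 were lower and 0 higher. Every tumour lay below every normal ovary in 10 of the 79 genes and above in 3, against 1093 and 1005 of 13009 genes in all. Their median log2 difference was −0.19, against −0.88 for the 8 genes and −0.00 for all genes. The lists were not tested against each other. Like the 8 genes, they were chosen with earlier results of these data known.

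Among other licensing genes, 7 of 11 were negative, with 0 called and a median of −0.08. MCM9, a relative of the helicase subunits that works in DNA repair, differed by −0.78 (SE 0.28), the origin recognition subunits ORC5 and ORC6 by −0.60 (SE 0.26) and −0.33 (SE 0.17). CDT1, the loader that DTL's ligase removes, gave 1621, 1400 and 1206 in tumours 4, LB14 and LB11, and 1985, 1325 and 2006 in normal hens 36, LB3 and LB22. Normal hen LB3 lay below tumours 4 and LB14, so CDT1 overlapped, and its difference was −0.31 (SE 0.22, 95% interval −0.80 to 0.18), with −0.64 (SE 0.23) on its other probe set. GMNN, geminin, the protein that blocks CDT1, differed by 0.18 (SE 0.18, 95% interval −0.23 to 0.59).

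Genes of origin firing and its checkpoint were negative in 8 of 11, with 0 called and a median of −0.22. CDC7, the kinase that phosphorylates the MCM ring so that CDC45 can join, gave 298, 216 and 181 in tumours 4, LB14 and LB11, and 421, 356 and 526 in normal hens 36, LB3 and LB22. CDC7 did not overlap between groups and differed by −0.87 (SE 0.27, limma adjusted p = 0.384), while its other probe set was below the background limit on all 6 arrays. GINS3, a subunit of the active helicase, differed by −0.28 (SE 0.16) and WDHD1, which links the helicase to DNA polymerase alpha, by −0.30 (SE 0.24).

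Replication fork genes were negative in 18 of 20, with 0 called and a median of −0.22. The polymerase subunits POLA2, POLD2 and POLE differed by −0.95 (SE 0.28), −0.89 (SE 0.30) and −0.57 (SE 0.28). PCNA, the sliding clamp that DTL's ligase needs to see its substrates, gave 6885, 7344 and 6990 in tumours 4, LB14 and LB11, and 9386, 6958 and 9650 in normal hens 36, LB3 and LB22. PCNA in normal hen LB3 was at the level of the tumours, and its difference was −0.28 (SE 0.17, 95% interval −0.67 to 0.11). All 5 genes of nucleotide supply were negative, with 0 called and a median of −0.20: TK1, thymidine kinase, differed by −1.00 (SE 0.30), RRM1, a ribonucleotide reductase subunit, by −0.67 (SE 0.27), and TYMS, thymidylate synthase, by −0.18 (SE 0.14).

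In G1/S control, 13 of 17 cyclins, kinase partners and ligase genes were negative, with 0 called and a median of −0.18. CKS2 and CKS1B, small partners of cyclin-dependent kinases, differed by −0.75 (SE 0.26) and −0.44 (SE 0.21), CUL4B, a scaffold of the ligase that DTL serves, by −0.46 (SE 0.20), and CCNE1, cyclin E1, by −0.15 (SE 0.26), with 0.07 (SE 0.18) on a probe set about as bright. CUL4A, the other CUL4 scaffold gene, went the other way, at 0.37 (SE 0.20), with every tumour above every normal ovary. Of E2F and pocket proteins, 6 of 10 were negative, with 0 called and a median of −0.13. E2F8, a repressor of the E2F family, gave 331, 223 and 215 in tumours 4, LB14 and LB11, and 644, 411 and 548 in normal hens 36, LB3 and LB22. E2F8 was free of overlap, with a difference of −1.02 (SE 0.26, limma adjusted p = 0.315) that was close to that of E2F1. The pocket proteins, which hold E2F factors in check, differed by −0.23 (SE 0.31) for RB1, −0.18 (SE 0.18) for RBL1 and 0.44 (SE 0.23) for RBL2. For RBL2 too, every tumour lay above every normal ovary on the brightest probe set. Of 5 inhibitors of cyclin-dependent kinases 2 were negative, with 0 called. CDKN1B (p27) differed by 0.35 (SE 0.16), with every tumour above every normal ovary. On its other probe set the groups overlapped, with a difference of 0.03. CDKN2B and CDKN2C differed by −0.59 (SE 0.62) and −0.43 (SE 0.61).

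Mitosis genes, which act later in the same cycle, were negative in 29 of 33, with 0 called and a median of −0.19. SMC4, a condensin subunit, differed by −1.12 (SE 0.27), PRC1, a bundler of the spindle midzone, by −1.00 (SE 0.29) and BIRC5, survivin, by −0.67 (SE 0.21). MKI67, the Ki-67 gene of dividing cells, gave 2172, 3014 and 2577 in tumours 4, LB14 and LB11, and 3189, 2407 and 2407 in normal hens 36, LB3 and LB22. The 2 groups overlapped for MKI67, and the 95% interval of its difference of −0.04 ran from −0.48 to 0.39.

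**Figure D3:**
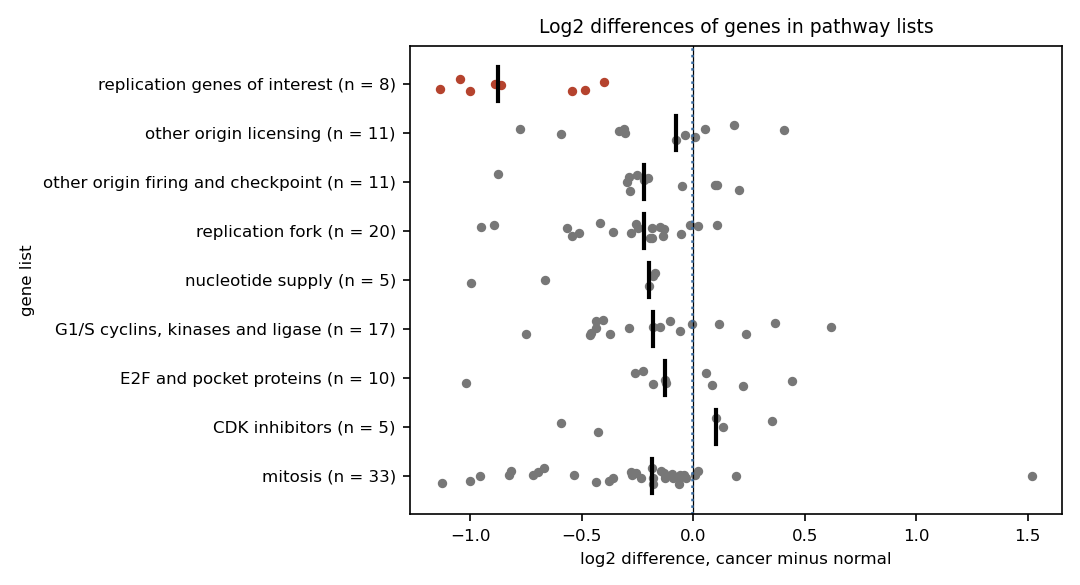
Log2 difference, cancer minus normal, of each gene on its brightest probe set (1 point a gene), with the list median as a bar and the median of all genes as a dotted line. The 8 genes of interest (red) all lie below 0 with a median of −0.88, while the medians of the other lists lie between −0.22 and 0.10. The 8 genes and the lists were chosen with earlier results of these data known.

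The array-wise profile of the 8 genes had close matches. Over the 6 arrays, the root mean square difference between a gene's centred log2 profile and the mean profile of the 8 genes was smallest, among 10663 candidates, for TRIM63 (0.06), HMGB2 (0.09), FUNDC1 (0.10), TRIM36 (0.10) and CIT (0.11), against a median of 0.54 and a 0.01 quantile of 0.21 for all candidates. These genes were picked as the nearest of many over few arrays, so their closeness is no sign of a shared function. TRIM63 and TRIM36 are ubiquitin ligases, HMGB2 is a chromatin protein, FUNDC1 a receptor for the removal of mitochondria, and CIT a kinase of cell division. Among the 8 genes themselves the distance from their mean ran from 0.12 for MCM2 to 0.36 for MCM5. HMGB2 gave 1542, 1418 and 1504 in tumours 4, LB14 and LB11, and 3135, 1807 and 2755 in normal hens 36, LB3 and LB22. HMGB2, picked for its likeness to the 8 genes, was lowest among normal ovaries in LB3 and highest in 36.

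Markers of ovarian cell types also differed between the groups, and their part in the lower replication genes was not tested. Genes of the steroid-making follicle cells, which include the granulosa, were negative in 16 of 17, with 0 called and a median of −1.28. STAR, the cholesterol carrier of steroid-making cells, differed by −3.44 (SE 0.56) and CYP17A1, an enzyme of androgen synthesis, by −3.29 (SE 0.66). The summed signal of all 17 genes of the list ran from 19492 to 35627 in tumours and from 53968 to 76951 in normal ovaries. Normal hen LB3 had the lowest normal sum in this list and also in the fibroblast, smooth muscle and red cell lists, 4 of the 11 cell type lists. For the 8 genes the sum ran from 5960 to 7247 in tumours and from 8575 to 13566 in normal ovaries. In the oocyte and germ cell list 5 of 11 were negative and 6 positive, with a median of 0.02 and 2 called lower. In log2 terms ZP3, an egg coat gene, fell by 3.52 (SE 0.38, limma adjusted p = 0.0103) and UMOD fell by 2.56 (SE 0.30, limma adjusted p = 0.0191). Which cells of the ovary made these 2 transcripts was not tested, so they do not stand for the whole list. The summed signal of that list overlapped, from 12017 to 27617 in tumours and from 20796 to 25187 in normal ovaries.

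Epithelial markers were positive in 9 of 9 with 3 called higher: CLDN3, a tight junction protein, at a difference of 6.20 (SE 0.74, limma adjusted p = 0.0204), CDH1, E-cadherin, at 5.44 (SE 0.52, limma adjusted p = 0.00554), and CLDN10, another claudin, at 5.29 (SE 0.44, limma adjusted p = 0.00198). The summed signal of all 9 epithelial markers ran from 26333 to 64840 in tumours and from 16747 to 19625 in normal ovaries. Egg-white genes of the oviduct were positive in 11 of 11 with 9 called higher, led by OVAL at 8.53 (SE 0.77, limma adjusted p = 0.00401) and SPINK7 at 8.35 (SE 0.37, limma adjusted p = 6.61e-05); OVAL was among the genes known from the study of these samples, so that list is not independent evidence. Its sum ran from 63786 to 132143 in tumours and from 945 to 2484 in normal ovaries.

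The remaining lists had 0 called genes in either direction, and the summed signals of tumours and normal ovaries overlapped in each. Fibroblast matrix genes were negative in 10 of 13 (VCAN −1.69, COL5A1 −1.00). The list's sums were 44343 to 127041 in tumours and 104031 to 144655 in normal ovaries. Its mean log2 level, relative to the normal mean, was −1.50 in tumour 4, −0.05 in LB14 and −0.07 in LB11. Tumour 4 was the lowest tumour for 13 of 13 genes of this list. Smooth muscle was negative in 3 of 6 (MYH11 0.86, TAGLN 0.73), with sums of 8910 to 41629 in tumours and 11169 to 19222 in normal ovaries. The mean log2 level of this list was −1.16 in tumour 4, −0.07 in LB14 and 1.37 in LB11. Tumour LB11 was the highest tumour for 6 of 6 smooth muscle genes. Endothelium was negative in 6 of 7 (TIE1 −0.96, ERG −0.63), with sums of 3247 to 4799 in tumours and 4391 to 5115 in normal ovaries. Among white cells, T cell genes were negative in 4 of 8 (CD247 0.93, CD4 −0.41; 2451 to 3893 and 1636 to 3040), with LCK at or below background on all arrays. B and plasma cell genes were negative in 1 of 5 (CD79B 0.30, PAX5 −0.12; 22036 to 46637 and 14742 to 51122) and macrophage genes in 7 of 9 (C1QA −0.62, C1QC −0.35; 21913 to 42157 and 26920 to 44192). Red cell genes were negative in 3 of 3 (HBA1 −0.70, HBAD −0.49), with sums of 5205 to 29981 in tumours and 18583 to 23780 in normal ovaries. The mean log2 level of the red cell list was −1.70 in tumour 4, −0.43 in LB14 and −0.24 in LB11. The dim HBZ (mean signal 41.2) differed by −1.18 (SE 0.43) with no overlap between groups. RNA quality, read as the log2 ratio of 3' to 5' control probe sets for actin and GAPDH, was 0.14 ± 0.07 in cancer and 0.11 ± 0.11 in normal ovaries (SD, n = 3 per group). Its difference of 0.03 had p = 0.8 by an exact permutation test, two-sided, for which 3 hens against 3 allow no p under 0.1.

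**Figure D4:**
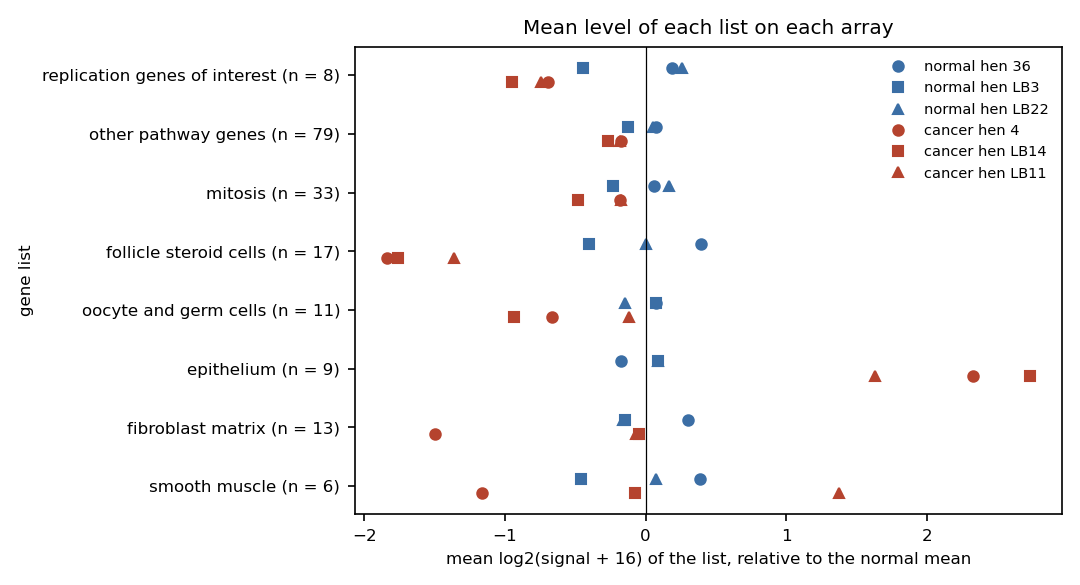
Mean log2(signal + 16) of each list on each array, relative to the mean of the 3 normal ovaries (blue: normal, red: cancer; each symbol is 1 hen). The 8 genes of interest lie between −0.95 and −0.69 in tumours and at −0.45 in normal hen LB3, and LB3 is also the lowest normal ovary for the other pathway genes, mitosis, follicle steroid cells and smooth muscle.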

How the data were processed

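Each deposited value is a signal intensity of 1 probe set on a linear scale, made by the authors with GCOS, the Affymetrix software, per the submitters' processing notes. The sources used here name neither the GCOS version nor the scaling target. With 2% of values trimmed from each tail, all arrays had a mean of 500.1, so no further normalization was applied. No pair of arrays was identical.

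Signals were transformed as log2(signal + 16), and cancer was compared with normal by limma 3.58.1 in R 4.3.3 (two-sided, eBayes with a trend, p-values adjusted by Benjamini-Hochberg over all 38439 probe sets, threshold 0.05), with no filter on signal; 96 control probe sets were left out. A log2 difference on this scale understates the change of dim genes. The limma step was tested on simulated data. 11 of the 14 probe sets had a mean signal at or above 66.9, the 40th percentile. The background limit of an array was set where 95% of 59 controls for foreign transcripts lay below it (25.5 to 44.6), a choice made after values were seen.

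Symbols were taken from the array's annotation and checked in a RefSeq table (assembly GRCg7b, used for names only): 27178 probe sets had 1 symbol, 177 several and 11180 none. A gene was represented by its probe set with the highest mean signal. The members, the 22 gene lists and the tests were chosen with earlier results of these data known. The text names all members, the 3 genes of smallest p in each pathway list, MCM7, CDT1, GMNN, PCNA, CCNE1, CDK2, RB1 and MKI67 where the array holds them (MCM7 and CDK2 were on no probe set by symbol), and, per cell type list, the 2 genes of largest difference among those with a mean signal of at least 66.9. HMGB2's array values, CUL4A, CLDN10, HBZ and LCK were chosen after values were seen. Alternatives were pseudocounts, filters, scalings, limma settings, a block for the title prefix, only the LB hens, each hen removed in turn, a gene's mean over its probe sets and a threshold of 0.1. Figures were drawn with matplotlib 3.10.9.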

Additional observations from a re-analysis of the deposited data

How the results depend on the processing

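0 of the 14 probe sets passed the limma threshold in the main fit or in any alternative, and all 8 genes kept a negative difference in each alternative that tested them (MCM10 was removed by a filter at the 60th percentile). Median differences of the 8 genes ran from −1.17 to −0.69. Signs turned in 2 cases among the other probe sets of MCM6: 0.0537 for the one that ordered the hens differently, in the LB hens alone, and −0.0512 for the one at background, without normal hen LB22 (up to 0.539 on leaving out 1 hen and up to 0.803 with a pseudocount of 1); the cause was not tested. The count of genes free of overlap, 5 (8.4% of all genes), ran from 5 to 8 when 1 hen was left out, with 8 without LB3. With fewer arrays the share of all genes rose too, to between 11.3% (without LB22) and 15.1% (without LB3). These overlap counts were alternatives chosen after seeing the data.

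Over all probe sets, 38 were called higher and 6 lower. The lower count became 10 with a pseudocount of 1, with a filter at the 40th percentile and with robust fitting, and 3 with a pseudocount of 64. Without a trend 23 and 2 were called, in the LB hens alone 11 and 0, and at an adjusted p under 0.1 62 and 14. Leaving out 1 hen gave 20 to 139 higher and 0 to 14 lower: removing tumour 4 gave 24 and 3, tumour LB11 139 and 14, normal hen 36 22 and 1, LB3 20 and 4, and LB22 20 and 0. What raised the counts on removing LB11 was not tested. At an unadjusted limma p under 0.05 there were 2084 without LB22 and 2673 in the LB hens alone, in both directions. No paired analysis was possible because the groups share no replicate numbers.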
